A study of Homo sapiens with 8 samples.

Results

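EZH2 and its partners in Polycomb repressive complex 2 (PRC2) were examined as a set of 10 genes: EZH2, EZH1, SUZ12, EED, RBBP4, RBBP7, JARID2, PHF19, MTF2 and AEBP2. The members were chosen as the known core and accessory subunits, and their probes were found through the RefSeq accession that the array files give for each probe. A probe was matched for 9 of the 10 genes, with 13 probes in all, among 28748 genes and 35365 probes tested. EED had no matched probe here. The cells were LNCaP, an established line from a lymph node metastasis of human prostate cancer, grown with fetal bovine serum. They were transfected with 30 nM of an siRNA against GATA2 (siGATA2) or of a scrambled siRNA (siControl), and RNA was taken at 72 h. RNA from 4 replicates of each group, described as biological, was hybridised to one-colour arrays. The methods name 1 catalogue product for each siRNA, so all arrays labelled siGATA2 shared the same reagent.

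PRC2 is the enzyme complex that methylates lysine 27 of histone H3 (H3K27), a mark of silenced genes. EZH2 and EZH1 are alternative catalytic subunits, and each works only with SUZ12 and EED. RBBP4 and RBBP7 are closely related histone chaperones found in PRC2 and in several other chromatin complexes. PHF19 and MTF2 mark one form of the complex, PRC2.1, whereas JARID2 and AEBP2 mark the other, PRC2.2. EZH2 is best known in prostate cancer for its high level in metastatic disease and its link to dividing cells.

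Promoters of 5 of the 6 genes that were called are shown first, because the opposite directions of EZH2 and EZH1 invite a look at their start sites. PHF19, the sixth, is not shown, as its match lay outside the stretch printed. RefSeq windows of 300 bases around an annotated start (GRCh38.p14) were held for all 10 genes, 15 windows in total. They were searched on both strands for 3 kinds of letters. The E2F-type was any of the word TTGGCGC, the word TTCCCGC, the word TTGCCGC and the word TTCGCGC. The GATA-type was the word AGATAA or the word TGATAA. The third was the CCAAT box. Each line below runs 5′ to 3′ on the strand of the gene, from 120 bases before the start to 30 after it, with the E2F-type letters in capitals.
EZH2, chr7:148884262-148884411, minus strand: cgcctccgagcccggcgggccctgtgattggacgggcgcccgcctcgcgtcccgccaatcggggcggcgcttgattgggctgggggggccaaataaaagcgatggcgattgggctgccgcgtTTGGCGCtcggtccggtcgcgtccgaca
RBBP4, chr1:32651088-32651237, plus strand: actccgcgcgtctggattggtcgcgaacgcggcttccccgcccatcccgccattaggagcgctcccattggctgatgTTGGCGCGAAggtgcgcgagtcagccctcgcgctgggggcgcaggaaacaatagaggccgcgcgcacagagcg
RBBP7, chrX:16869834-16869983, minus strand: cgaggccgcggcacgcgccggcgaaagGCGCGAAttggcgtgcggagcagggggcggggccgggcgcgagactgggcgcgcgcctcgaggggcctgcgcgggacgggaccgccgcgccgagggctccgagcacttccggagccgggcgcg
EZH1, chr17:42745011-42745160, minus strand: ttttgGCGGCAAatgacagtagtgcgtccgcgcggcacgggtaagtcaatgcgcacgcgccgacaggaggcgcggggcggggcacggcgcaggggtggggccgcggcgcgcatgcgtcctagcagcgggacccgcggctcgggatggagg
MTF2, chr1:93079163-93079312, plus strand: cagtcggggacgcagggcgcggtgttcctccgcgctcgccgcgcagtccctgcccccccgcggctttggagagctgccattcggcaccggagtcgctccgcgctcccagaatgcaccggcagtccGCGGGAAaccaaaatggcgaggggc

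In EZH2 the E2F-type match began at base 3 of the transcript, and in MTF2 at base 6. In RBBP4 a pair of overlapping matches, on opposite strands, made up the run in capitals. E2F-type letters were in 9 of the 15 windows, which belonged to 8 of the 10 genes, against 13.0% of all 35116 windows. EED and JARID2 were the genes without them, and the 2 windows of RBBP4 overlap and hold the same letters. EZH2, RBBP7 and PHF19 each had another annotated start whose window held no E2F-type letters. The stretches printed above are those that hold a match, so they do not stand for every start of these genes. CCAAT was in 10 of the 15 windows, of 7 genes, against 34.6% of all windows. GATA-type letters were in 0 of the 15 windows, against 16.3% of all windows. The windows were not matched for base composition, and the matches are letters only. Genes that were lower, such as EZH2 and RBBP4, and genes that were higher, such as EZH1 and MTF2, both carried E2F-type letters.

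The targeted gene checks the labels. Signals are given as log2 of the processed intensity after quantile normalization, and a log2 fold change is the mean of the siGATA2 group less that of the siControl group. GATA2, read by 1 probe, had a log2 signal of 12.61, 12.54, 11.57 and 11.40 across siGATA2 arrays 1 to 4, and of 11.74, 11.28, 11.10 and 11.29 on those labelled siControl. The groups overlapped, and the siGATA2 mean was the higher by 0.68 (SE 0.312, limma adjusted p = 0.154). GATA2 transcript was therefore not lower on the arrays labelled siGATA2, and the directions given for PRC2 genes follow the labels. The pair of siGATA2 arrays with the letters A and B in their sample titles stood high in GATA2, and the other 2 (letters E and F) did not. SiControl arrays 1 to 4 had the letters B, D, F and G. Letters B and F occurred in both groups, and the labels do not say what a letter marks. Letters A and B thus held siGATA2 arrays 1 and 2 and siControl array 1. With these as one block and the later letters as the other, the GATA2 difference was 0.47 (limma adjusted p = 0.026). On the arrays lettered D to G alone, siGATA2 arrays 3 and 4 against siControl arrays 2 to 4, it was 0.26 (limma adjusted p = 0.104).

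On every array between 24438 and 37033 of 42405 probes were well above background, the fewest on siControl arrays 3 and 1. All 13 PRC2 probes were well above background on 8 of 8 arrays. All 11 LNCaP markers were well above background on every array, and 5 of them fell and 1 rose, with KLK2, a prostate kallikrein, at -1.84. Of 9 tested markers of leukocytes, endothelium, fibroblasts and basal cells 4 were so, and their summed intensity was 2199 to 2339 on the siGATA2 arrays and 2031 to 2457 on the siControl arrays. CD68 was 2.00 higher and PTPRC 0.87 higher on the log2 scale on the arrays labelled siGATA2, and VWF was 0.96 lower. The other 6 of these 9 markers were not called. Among them the leukocyte markers CD3E and CD14 were at -0.14 and -0.02 (limma adjusted p = 0.404 and 0.879). The part of other cells in the PRC2 values was not tested. The 8 arrays shared 1 slide and 1 scan, and row 1 of that slide held siGATA2 arrays 1 to 3 and siControl array 4.

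Of the 9 measured PRC2 genes, 4 passed the test as lower and 2 as higher on the arrays labelled siGATA2 (limma, Benjamini-Hochberg over all genes, threshold 0.05). EZH2, RBBP4, RBBP7 and PHF19 fell, EZH1 and MTF2 rose, and SUZ12, JARID2 and AEBP2 did not pass the test. Over all genes 14.2% were called lower and 12.4% higher, so calls in general were frequent. Of the 9 genes, 3 were called lower by at least 2-fold, against 7.15% of all genes, and 0 rose by as much, against 4.54% of all genes. The signals of the 2 groups did not overlap for 6 of the 9 genes, the same 6 that were called, against 32.7% of all genes. The median log2 fold change was -0.14 over the 9 genes and 0.09 over all genes. The members were listed with earlier results of these arrays known, and EZH2 is also a gene that the study singled out from these arrays, so its own fall is a description.

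**Figure D1:**
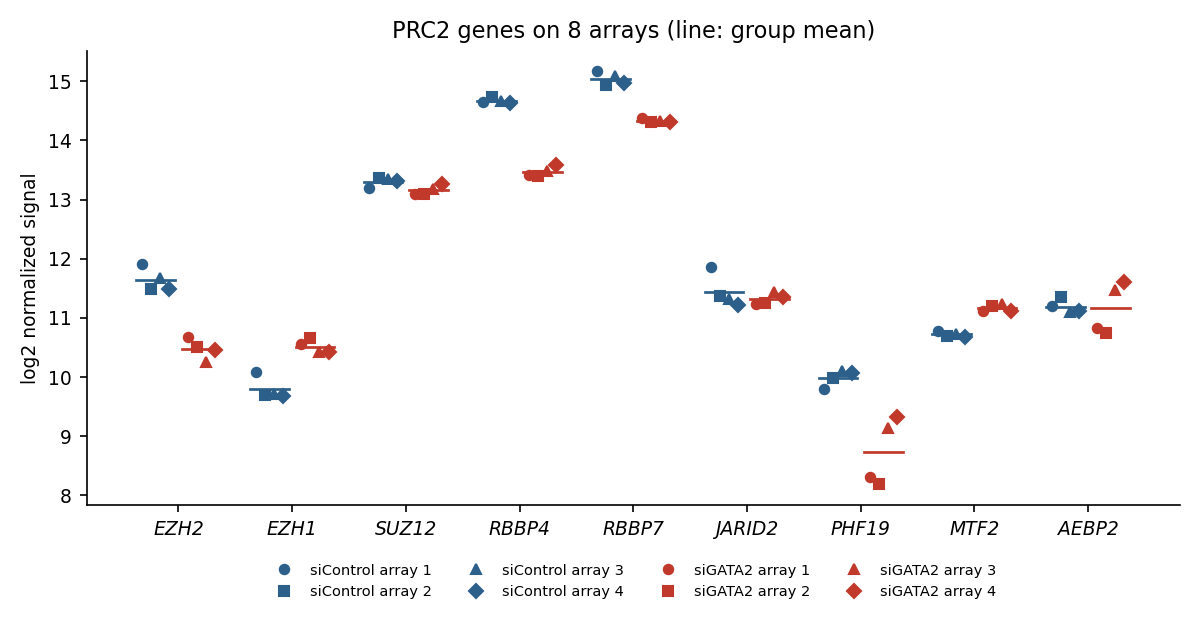
Normalized log2 signal of 9 PRC2 genes on the 4 arrays labelled siControl (blue) and the 4 labelled siGATA2 (red), with 1 symbol per array number and a line at each group mean. The groups are apart for EZH2, EZH1, RBBP4, RBBP7, PHF19 and MTF2 and overlap for SUZ12, JARID2 and AEBP2. Heights of different genes come from different probes and cannot be compared.

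The catalytic subunits moved in opposite directions. EZH2 had log2 signals of 10.68, 10.52, 10.26 and 10.45 on the arrays labelled siGATA2, and of 11.91, 11.49, 11.68 and 11.49 on those labelled siControl. Every siGATA2 value lay under every siControl value. EZH2 was lower by 2.24-fold (log2 fold change -1.16, SE 0.143, limma adjusted p = 0.000681), which left 44.7% of the control level. Within row 1 of the slide the difference was -1.0, and within row 2 it was -1.24. In bulk RNA, fewer cells that express a gene and less RNA per cell cannot be told apart.

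EZH1, the catalytic subunit typical of resting cells, had log2 signals of 10.55, 10.66, 10.43 and 10.42 on the siGATA2 arrays against 10.08, 9.70, 9.72 and 9.68 on the siControl arrays. All siGATA2 values were above all siControl values, of which array 1 was the highest. EZH1 was higher by 1.65-fold (log2 fold change 0.72, SE 0.129, limma adjusted p = 0.00441). Without siControl array 1 the difference was 0.82 (limma adjusted p = 0.0012).

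Both genes are read on the same array, so a shift of the whole array cancels in their log2 difference, and the offset between 2 probes has no meaning of its own. The log2 difference of EZH2 minus EZH1 was 0.13, -0.15, -0.17 and 0.04 on the siGATA2 arrays and 1.83, 1.79, 1.96 and 1.81 on the siControl arrays. It thus fell by 1.88 on the log2 scale (SE 0.0823), a 3.69-fold change of the ratio. The exact two-sided permutation test gave p = 0.0286, the smallest that 4 arrays against 4 allow, and 0.0357 after adjustment over 5 pairs. EZH2 was lower, and EZH1 higher, on every siGATA2 array than on any siControl array. The outcome of this test was therefore fixed beforehand, and it adds no support beyond the calls of the 2 genes. The change was between -1.94 and -1.72 under 13 alternatives of scaling, probe choice and left-out arrays.

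Among the core subunits that do not carry the enzyme, SUZ12 stood apart from EZH2. SUZ12, the scaffold on which the complex is built, had log2 signals of 13.10, 13.10, 13.18 and 13.27 on the siGATA2 arrays and of 13.20, 13.36, 13.35 and 13.31 on the siControl arrays. The groups overlapped, and the difference was -0.14 with a 95% interval from -0.36 to 0.08 (limma adjusted p = 0.314). With spike-in scaling SUZ12 was at -0.82 (SE 0.478, limma adjusted p = 0.379). The ratio of EZH2 to SUZ12 within an array was lower by 1.02 on the log2 scale (SE 0.175, exact permutation p = 0.0286, adjusted p = 0.0357). The gap between the groups in EZH2 was wider than the whole range of SUZ12. This p-value was therefore also fixed beforehand, and it adds no support beyond the call of EZH2.

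RBBP4 had the smallest standard error of the 4 genes that fell. Its brightest probe gave log2 signals of 13.42, 13.39, 13.49 and 13.59 on the arrays labelled siGATA2, and of 14.65, 14.73, 14.66 and 14.64 on those labelled siControl. The values within each group lay close together and the groups were far apart. Within slide row 1 the difference was -1.20 and within row 2 it was -1.09. RBBP4 was lower by 2.30-fold (log2 fold change -1.20, SE 0.0927, limma adjusted p = 7.79e-05). All 4 probes of RBBP4 were lower, with log2 fold changes of -1.20, -1.03, -0.95 and -0.77. One of them (A_24_P468810, at -0.77) lost its call with spike-in scaling (limma adjusted p = 0.111) and with siControl arrays 2 and 4 as the only controls (adjusted p = 0.0631). As all 4 probes carry 1 accession, they are repeat readings of 1 gene and not replicates.

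RBBP7, the close relative of RBBP4, had log2 signals of 14.38, 14.32, 14.32 and 14.31 on the siGATA2 arrays and of 15.17, 14.94, 15.08 and 14.97 on the siControl arrays. The groups did not overlap. The fall was 1.63-fold (log2 fold change -0.71, SE 0.0952, limma adjusted p = 0.00109). It was smaller than that of RBBP4, and the ratio of RBBP4 to RBBP7 within an array was lower by 0.49 on the log2 scale (SE 0.0838, exact permutation p = 0.0286, adjusted p = 0.0357). With the mean over the 4 RBBP4 probes in place of the brightest, this change was -0.28, with the same p.

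The PRC2.1 subunits PHF19 and MTF2, Polycomb-like proteins that help to bring the complex to chromatin, went opposite ways. PHF19 had log2 signals of 8.32, 8.19, 9.13 and 9.33 on the siGATA2 arrays and of 9.80, 9.98, 10.11 and 10.07 on the siControl arrays. All siGATA2 arrays were low, and arrays 1 and 2, the pair with the letters A and B, were the lowest. PHF19 was lower by 2.38-fold (log2 fold change -1.25, SE 0.270, limma adjusted p = 0.0109). On the arrays lettered D to G alone the fold change was -0.82 (limma adjusted p = 0.00304). With slide row as a block it was -1.08 and no longer called (adjusted p = 0.0554). Within row 1 the difference was -1.53, and within row 2 it was -0.64, where each row held a single array of 1 of the groups. The second PHF19 probe, on another transcript accession, was lower by less, at -0.46. The change of the difference between the 2 probes was -0.79 (SE 0.239, exact permutation p = 0.0286, adjusted p = 0.0571 over 4 probe pairs).

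MTF2 had log2 signals of 11.11, 11.20, 11.23 and 11.12 on the siGATA2 arrays and of 10.78, 10.70, 10.72 and 10.68 on the siControl arrays. The values were tight in both groups and did not overlap. MTF2 was higher by 1.36-fold (log2 fold change 0.45, SE 0.0890, limma adjusted p = 0.00749). The ratio of PHF19 to MTF2 was lower by 1.70 on the log2 scale (SE 0.300, exact permutation p = 0.0286, adjusted p = 0.0357). As PHF19 and MTF2 each separated the groups, in opposite directions, this p-value was fixed beforehand and adds no support beyond their calls.

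Neither PRC2.2 subunit passed the test. JARID2, a cofactor that helps to place the complex and lacks demethylase activity, had log2 signals of 11.23, 11.26, 11.44 and 11.35 on the siGATA2 arrays and of 11.87, 11.37, 11.32 and 11.22 on the siControl arrays. The siControl arrays spanned a wider range, with array 1 the highest, and the groups overlapped. Its fold change was -0.12, with a 95% interval from -0.49 to 0.24 (limma adjusted p = 0.593). AEBP2, a zinc-finger subunit, had log2 signals of 10.83, 10.75, 11.46 and 11.61 on the siGATA2 arrays and of 11.19, 11.35, 11.10 and 11.12 on the siControl arrays. SiControl array 1, whose title also has the letter B, was within the range of the other siControl arrays. SiGATA2 arrays 1 and 2 were under the siControl range and siGATA2 arrays 3 and 4 above it, the same pairs of siGATA2 arrays as in GATA2 and PHF19. The AEBP2 difference of -0.03 (95% interval -0.53 to 0.47, limma adjusted p = 0.932) therefore averages values of opposite sign. On the arrays lettered D to G alone it was 0.35 (adjusted p = 0.0696). The change of the ratio of JARID2 to AEBP2 was -0.09 (SE 0.231, exact permutation p = 0.714).

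**Figure D2:**
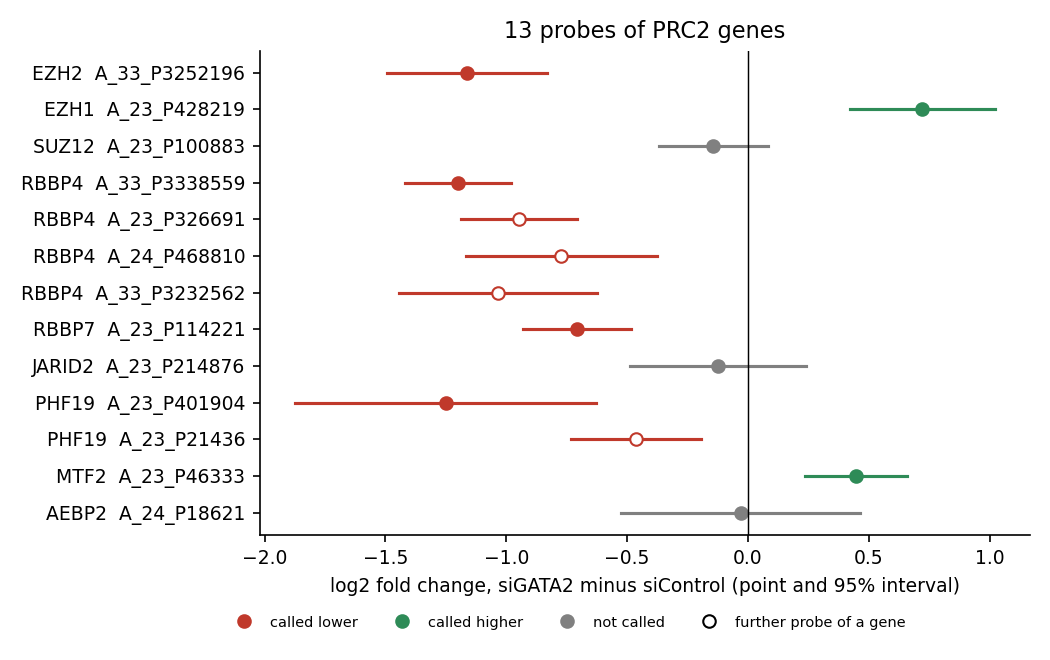
Log2 fold change of the 13 probes of PRC2 genes, siGATA2 minus siControl, as a point with its 95% interval, with open points for further probes of a gene. All 4 RBBP4 probes and both PHF19 probes lie left of 0, EZH1 and MTF2 lie right of it, and the intervals of SUZ12, JARID2 and AEBP2 cross it.

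Counted by probe, 8 of the 13 were called lower and 2 higher, against 14.6% and 12.6% of all probes.

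**Figure D3:**
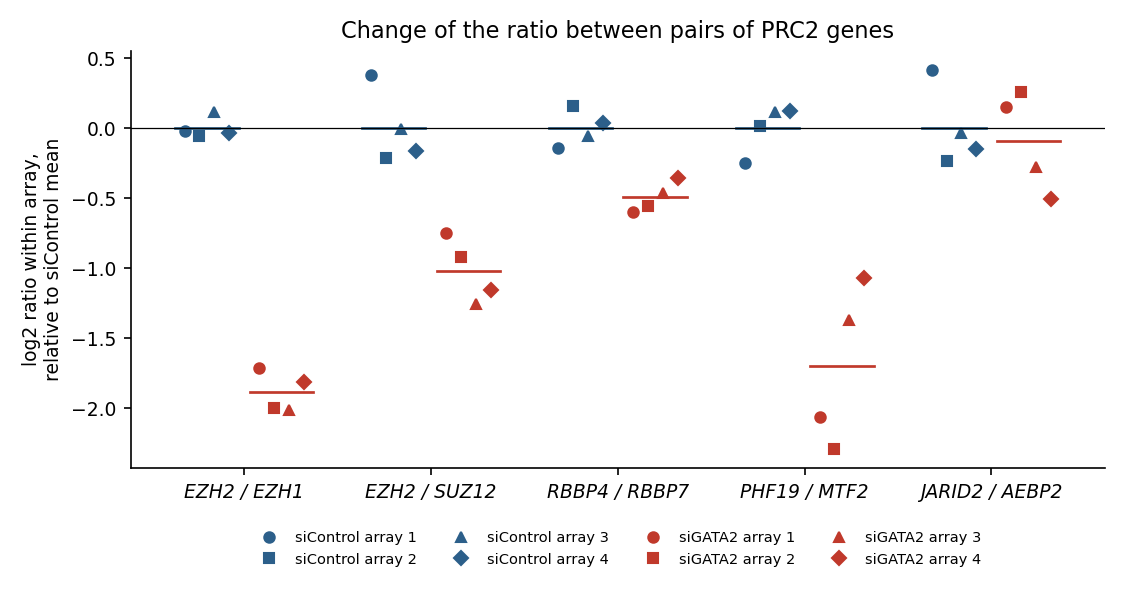
Log2 ratio within each array of 5 pairs of PRC2 genes, set to 0 at the siControl mean, with 1 symbol per array number and a line at each group mean. The groups do not overlap for the first 4 pairs and overlap for JARID2 and AEBP2.

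How the arrays are scaled moved the absolute changes. The median of all genes was 0.09 with quantile normalization, 0.18 with scaling to the 75th percentile and -0.43 with scaling to 7 E1A spike-in probes. EZH2 was at -1.16, -1.18 and -1.78 under these scalings, and RBBP4 at -1.20, -1.29 and -1.90. Relative to the median of all genes, EZH2 was at -1.25, -1.35 and -1.35, EZH1 at 0.63, 0.57 and 0.57, and MTF2 at 0.36, 0.26 and 0.26. MTF2 itself turned to -0.16 with spike-in scaling (limma adjusted p = 0.905), and EZH1 was at 0.14 (adjusted p = 0.924). RBBP7 was at -1.43 there and not called (adjusted p = 0.0931). Without siControl array 1 the spike-in median was -0.01 and EZH1 was at 0.65 (limma adjusted p = 0.0363). MTF2 was at 0.25 there and not called (limma adjusted p = 0.333).

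**Figure D4:**
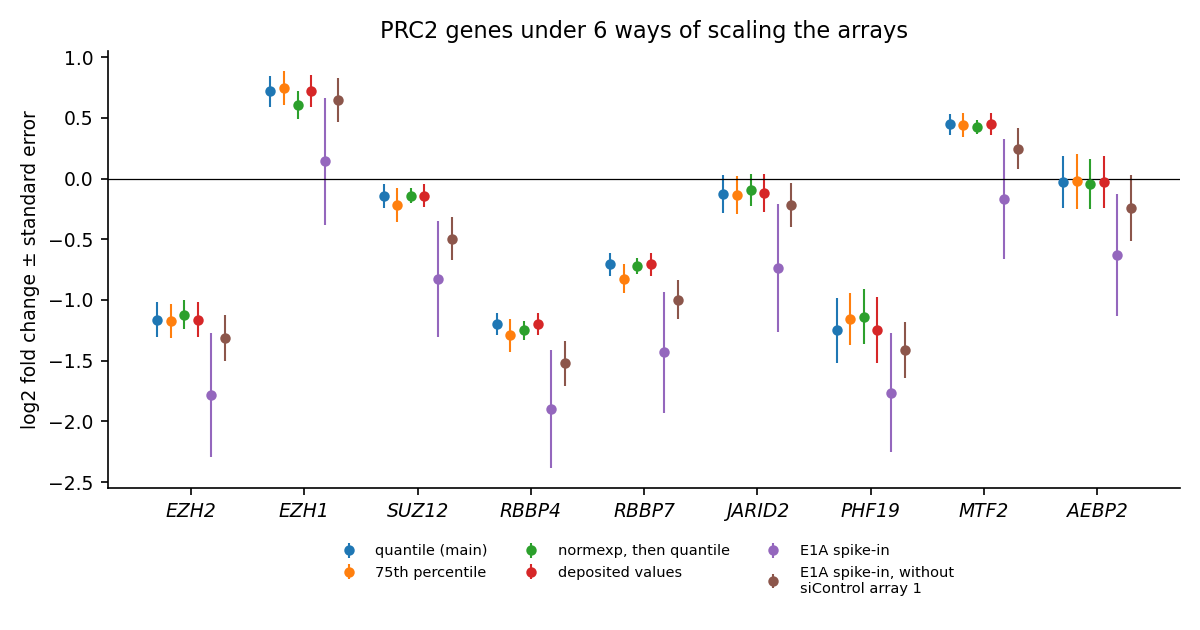
Log2 fold change of 9 PRC2 genes, siGATA2 minus siControl, under 6 ways of scaling or processing the arrays, with the standard error as a bar. Spike-in scaling moves all genes down together and has the widest bars, and MTF2 crosses 0 there.

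Other partners of PRC2 went both ways, and all changes from here on are on the log2 scale. Each list count below stands beside the 14.2% of all genes called lower and the 12.4% called higher. For called falls and rises of at least 2-fold the shares were 7.15% and 4.54%. Under other settings the share of all genes called was not counted. EPOP, a PRC2.1 partner that links the complex to elongin, ranged from 11.80 to 12.07 on the siGATA2 arrays and from 13.75 to 13.87 on the siControl arrays, a log2 fold change of -1.87 (limma adjusted p = 2.07e-05). PHF1, the third Polycomb-like protein beside PHF19 and MTF2, rose by 0.85 (limma adjusted p = 0.00107). LCOR was listed for a PRC2.1 partner that is a separate product of its locus. Its probe was not matched to that product, so no value is given, although the symbol is counted in the list totals.

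PRC1 is the companion complex, which ubiquitinates histone H2A and reads the mark that PRC2 writes. Of its 24 tested genes 7 fell and 5 rose, and the list median was -0.13. CBX2 and CBX6, readers of methylated H3K27, fell by 1.86 and 1.24 on the log2 scale. CBX7, another reader of the same family, rose by 1.22, and BCOR, a subunit of a variant complex, rose by 0.96. Neither catalytic subunit passed as lower: RING1 rose by 0.79 and RNF2 had a value of -0.69 (limma adjusted p = 0.108). On the arrays lettered D to G alone 11 genes of this list fell and 10 rose, a setting for which the share of all genes was not counted. With spike-in scaling 3 fell and 0 rose.

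The enzymes that oppose Polycomb marks were mixed. The H3K27 demethylase genes KDM6A and KDM6B were at 0.25 and 0.39, and neither was called (limma adjusted p = 0.339 and 0.173). Of 7 tested genes of the H2A deubiquitinase PR-DUB 3 fell and 1 rose, with a list median of -0.44. BAP1, its catalytic subunit, fell by 1.18, FOXK1 fell by 1.06 and MBD5 rose by 1.21. Of 14 tested genes of the COMPASS complexes, which methylate lysine 4 of histone H3, 4 fell and 2 rose, with a list median of -0.02. HCFC1 and PAXIP1 fell by 0.97 and 0.86, and the methyltransferase genes KMT2A and KMT2C rose by 1.01 and 0.76. With spike-in scaling 2 PR-DUB genes fell and 0 rose, and 0 COMPASS genes passed in either direction.

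RBBP4 and RBBP7 also serve in complexes outside PRC2. Of 23 tested genes of these complexes 7 fell and 5 rose, and the list median was -0.17. LIN9, a subunit of the MuvB core that controls cell cycle genes, fell by 1.71, and SAP30, of the SIN3 deacetylase complex, fell by 1.70. Both large subunits of chromatin assembly factor 1, CHAF1A and CHAF1B, fell by 1.06 and 1.49. SAP18, also of the SIN3 complex, rose by 1.12, and CHD3, of the NuRD remodelling complex, rose by 1.06. With spike-in scaling 4 genes of this list fell and 0 rose.

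Genes known as targets of EZH2 repression did not move together. Of 22 tested, 6 fell and 5 rose, with 4 by at least 2-fold in each direction, and the list median was 0.08 against 0.09 over all genes. With spike-in scaling 4 fell and 0 rose. CDKN1C, an inhibitor of cyclin-dependent kinases, rose by 1.83 (limma adjusted p = 2.3e-05). CCN3, a secreted matricellular protein, rose by 2.02, with only 2 of the 4 siControl arrays well above background. GAS2, a cytoskeletal protein, fell by 3.18, and MSMB, a secreted prostate protein, fell by 2.50. 

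The genes that E2F factors induce for DNA synthesis gave the most uniform list. Of 20 tested, 19 fell and 0 rose, 16 of them by at least 2-fold, with a list median of -2.01. RRM2, the gene not called, was at -0.58 (limma adjusted p = 0.287). E2F2, a member of the E2F family itself, fell by 2.79, and TYMS, which makes thymidylate, fell by 2.55. The mean log2 signal of the list was 11.00, 10.81, 10.72 and 10.79 across siGATA2 arrays 1 to 4, against 12.34, 12.71, 12.74 and 12.72 across the siControl arrays. The siGATA2 arrays were low throughout, as they were in EZH2, RBBP4, RBBP7 and PHF19. The part of cell division in the PRC2 values was not tested.

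**Figure D5:**
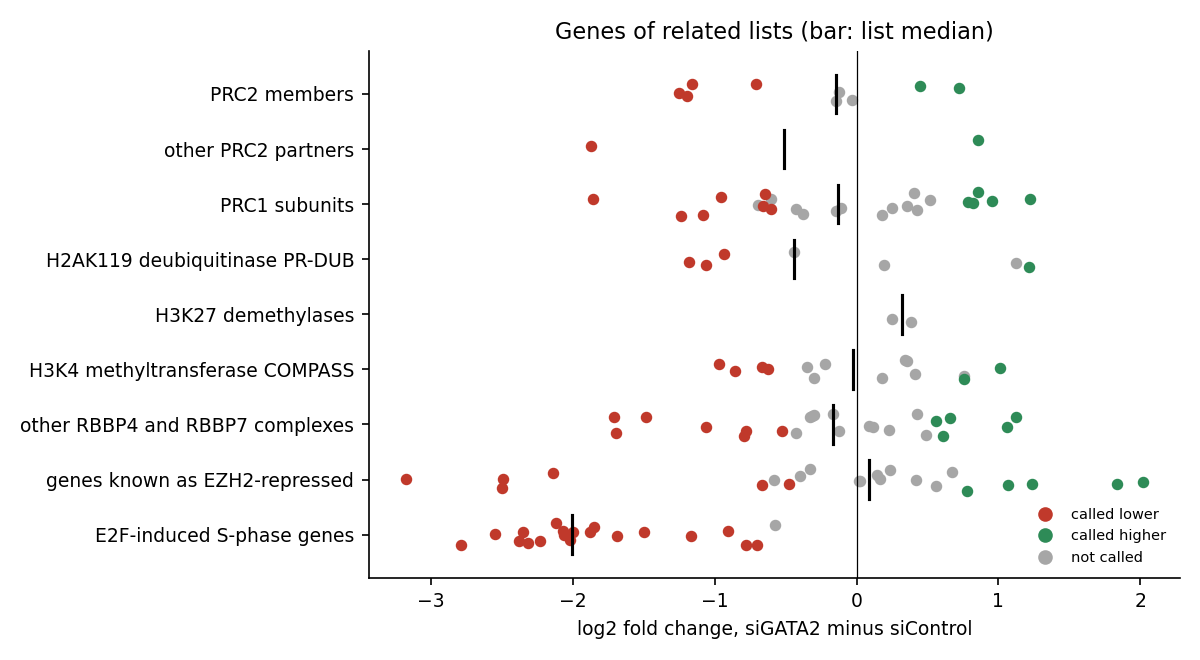
Log2 fold change, siGATA2 minus siControl, of each tested gene of PRC2 and of 8 related lists, coloured by call, with a bar at the list median and LCOR left out. The E2F-induced list lies left of 0 with a median of -2.01, whereas the other lists with over 3 genes have calls on both sides.

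The genes whose values followed EZH2 most closely over the 8 arrays were NMU (Pearson r = 0.997), KIAA0586, C16orf95, MMUT and INCENP, among 13292 genes with a symbol and a probe above background on all arrays. These correlations are a description, since the 8 points fall into 2 groups and share their scaling. INCENP, a subunit of the chromosomal passenger complex of mitosis, fell by 2.05, and NMU, a secreted neuropeptide, fell by 2.83. When the group means were taken out, the closest were C16orf95 (r = 0.987), PIH1D1, ARTN, NMU and PRELID3A. Among the members, RBBP7 (0.989) and RBBP4 (0.948) were closest to EZH2 over the 8 arrays, and MTF2 (-0.939) was the most opposed. With the group means taken out RBBP7 was at 0.860, EZH1 at 0.788, JARID2 at 0.441 and MTF2 at 0.065. RBBP4 was at -0.379, AEBP2 at -0.489, PHF19 at -0.564 and SUZ12 at -0.678. SiControl array 1 was the highest siControl array in EZH2, EZH1, RBBP7 and JARID2, and the correlations were not recomputed without it.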

How the data were processed

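Total RNA of LNCaP cells was labelled with Cy3 and read on 8 one-colour arrays, 4 per group, whose replicate numbers came from the labels. The authors deposited scanner intensity from Agilent Feature Extraction 11.0.1.1, from which processed signals and quality flags were taken, together with a table of log2 values for the same arrays. The methods name quantile normalization in GeneSpring, removal of probes without annotation or under 3 on the log2 scale, and a t-test. The files and the methods name different array designs.

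From the deposited intensity, spots flagged as outliers were dropped, log2 signals were averaged over the spots of a probe, and the 8 arrays were quantile-normalized. The same 2 filters were applied. A RefSeq table (GRCh38.p14, names only) named 26364 of the 27902 probes that carry a RefSeq accession, and 1914 probes without annotation were removed. The brightest probe stood for a gene. Groups were compared with lmFit and eBayes of limma 3.58.1 in R 4.3.3, with Benjamini-Hochberg adjustment over 28748 genes and a threshold of 0.05. Pair ratios were compared with an exact permutation test. The deposited log2 values were closest to their own array for 8 of 8 arrays (lowest correlation 0.985) and served as an alternative, as did other scalings, the normexp background correction (offset 50), filters, blocks, array weights and left-out arrays.

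The members, the gene lists and the tests were chosen with earlier results of these data known. The genes named are GATA2, the members, up to 2 called genes with the largest fall and rise in each list, and the 5 genes most like EZH2 by each measure. Of these, LCOR and 1 other gene are not reported here. KDM6A, KDM6B, RRM2, RING1, RNF2, CHAF1A, CHAF1B, CD3E and CD14 were added after their values were seen. The number of arrays limits the precision, and arrays have no read depth. The xenografts, tumour cohorts and cell assays of the study were not analysed here.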

Additional observations from a re-analysis of the deposited data

Results flagged for a closer look

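Among 38 groups of 4 values, 3 held an array set apart by most of the range of its group. Chance gives about 1 group in 20, and 3 of 38 is not far above that. The gap itself can be small, as in RBBP7. EZH1 on siControl array 1 was at 10.08 on the log2 scale, and the other siControl arrays were at 9.68 to 9.72. RBBP7 on siGATA2 array 1 was at 14.38, and the others were at 14.31 to 14.32. The RBBP4 probe A_23_P326691 was at 13.10 on siControl array 3, and at 13.24 to 13.25 on the others.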

How the results depend on the processing

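EZH2 was called lower under all 25 alternatives, with log2 fold changes from -1.78 to -1.01 and limma adjusted p up to 0.0357, and RBBP4 under all 25 with values from -1.90 to -0.99. With spike-in scaling 0 member genes and 0 member probes were called higher, 5 member probes were called lower, and over the related lists 30 genes fell and 1 rose, against 47 and 20 with quantile normalization. MTF2 reversed to -0.16. Spike-in scaling without siControl array 1, chosen after seeing the data, gave 1 member gene and 1 member probe higher and 12 list genes higher. With the mean over probes 1 member gene fell by at least 2-fold, against 3. Title letters as a block and the arrays lettered D to G alone, both chosen after seeing the data, each gave 33 list genes higher. The share of all genes called was not counted under any alternative. PHF19 was not called with slide row as a block (-1.08, limma adjusted p = 0.0554) or with siControl arrays 2 and 4 as the only controls (-1.29, adjusted p = 0.0541). The second PHF19 probe lost its call in 8 of 24 alternatives. GATA2 was called higher with array weights (0.79, adjusted p = 0.0321). Leaving out each array in turn gave 4 member genes lower and 2 higher each time, 7 to 8 member probes lower, 44 to 47 list genes lower and 18 to 25 higher. Replicate numbers gave no uniform pairing, with correlations of deviations of 0.54, -0.31, 0.17 and 0.22 for numbers 1 to 4, and pairing was not tested. With the replicate as a block EZH2 was at -1.16 (limma adjusted p = 0.0051) and the same number of member genes was called. The cause of these shifts was not tested. Slide as a block was not run, since all arrays lay on 1 slide. Signal over background was lowest on siControl arrays 1 and 3, which limits dim genes such as CCN3.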
